A study of Mus musculus with 9 samples.

Results

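The let-7 family of mouse liver was described through the 5p arms of its mature miRNAs, the arm that carries the let-7 sequence. The 9 members, mmu-let-7a-5p, mmu-let-7b-5p, mmu-let-7c-5p, mmu-let-7d-5p, mmu-let-7e-5p, mmu-let-7f-5p, mmu-let-7g-5p, mmu-let-7i-5p and mmu-miR-98-5p, were chosen by name from the 1140 rows of the miRNA table, without use of their values. Small RNA libraries were made from whole liver of 9 C57BL/6 mice, all male and obtained at an age of 8 weeks, in 3 groups of 3. Control mice were injected intraperitoneally with normal saline for 8 weeks, TAA mice with thioacetamide (TAA, a hepatotoxin that causes fibrosis) for 8 weeks, and recovery mice with the same TAA course, after which they were left to recover spontaneously for 8 more weeks. Recovery mice were therefore older than the others when sampled, there was no saline group of their age, and recovery and age cannot be told apart. RNA came from whole liver, so that a change in the make-up of the cells and a change in the RNA of each cell cannot be told apart either.

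let-7 miRNAs are made from hairpin precursors encoded at several places in the genome, and each hairpin can give a 5p and a 3p arm. They are abundant in differentiated tissues, where they repress mRNAs of growth and developmental genes such as Hmga2, Myc and the Ras genes. LIN28 proteins, which are themselves repressed by let-7, block the maturation of let-7 precursors. A miRNA finds its targets mainly through its seed, the bases near its 5′ end, so that members with one seed are taken to share many targets.

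The mature sequences are shown because the seed defines the family and because the few bases outside it are all that separates one member's reads from those of another. They were taken from RefSeq (GRCm38.p6), where 9 of 9 members were matched by name, and are written 5′ to 3′ with the seed, bases 2 to 8, in capitals.
mmu-let-7a-5p: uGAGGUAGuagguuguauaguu
mmu-let-7b-5p: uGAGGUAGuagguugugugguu
mmu-let-7c-5p: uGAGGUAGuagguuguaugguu
mmu-let-7d-5p: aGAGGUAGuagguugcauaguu
mmu-let-7e-5p: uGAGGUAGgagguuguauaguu
mmu-let-7f-5p: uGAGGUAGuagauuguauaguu
mmu-let-7g-5p: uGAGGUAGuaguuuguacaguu
mmu-let-7i-5p: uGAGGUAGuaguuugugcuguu
mmu-miR-98-5p: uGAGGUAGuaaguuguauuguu

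All 9 were 22 bases long and shared the seed. Counted from 1 at the 5′ end, mmu-let-7a-5p differed from mmu-let-7c-5p by A19G, from mmu-let-7e-5p by U9G and from mmu-let-7f-5p by G12A, and mmu-let-7b-5p differed from mmu-let-7c-5p by G17A. Each of these pairs is 1 base apart, and the handling of reads that match more than 1 member was not given in the sources used here, so the split of reads between them is uncertain. Among the 9 members the nearest relative of mmu-let-7i-5p was mmu-let-7g-5p, at 2 bases (A17G and A19U from g to i). The only other let-7 row in the table, mmu-let-7j, held 1 to 7 counts per sample and was left out.

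Total counts were between 9071847 and 12983378 per sample, and the family held between 406696 and 659455 of them. At this depth the counting error was small, with a widest 95% Wilson interval of 0.307 percentage points for any member's share of the family in any sample. This interval covers counting error only. The 3 miRNAs mmu-miR-122-5p, mmu-miR-122b-3p and mmu-miR-21a-5p, together took between 56.2% and 66.5% of each library. The authors listed the miR-122 row and the miR-122b row with an identical fold change and FDR in fibrosis reversal. The same reads may thus stand in both rows and be counted more than once in library totals, on which TPM and percentages of the library rest. This was not tested. The normalization factors of the trimmed mean of M-values (TMM), which scale each library so that most miRNAs are level, were 0.739 to 0.792 in control, 1.43 to 1.63 in TAA and 0.766 to 0.887 in recovery. Moving from TMM to library totals shifted the median log2 fold change over all rows tested, by 1.12 for TAA vs control, -0.86 for recovery vs TAA and 0.18 for recovery vs control. The members were therefore measured on 3 scales. TPM, as deposited, is the count divided by the library total and multiplied by 1000000. TMM CPM is the same after TMM. The share of the family is the member's count as a percentage of the 9 summed, and no other miRNA enters it. FDR values come from edgeR quasi-likelihood tests across all rows tested, except where DESeq2 or limma is named.

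In control liver the family was led by mmu-let-7f-5p, with 20568 ± 345.3 TPM (SD, n = 3), and mmu-let-7g-5p, with 10827 ± 378.5 TPM. They were followed by mmu-let-7a-5p (3610 ± 105 TPM), mmu-let-7i-5p (2106 ± 115 TPM) and mmu-let-7c-5p (1964 ± 82.2 TPM), the last 2 of which overlapped. The least abundant were mmu-let-7b-5p (601.2 ± 44.4 TPM), mmu-let-7d-5p (293.5 ± 14.4 TPM), mmu-let-7e-5p (123.01 ± 2.84 TPM) and mmu-miR-98-5p (109.8 ± 4.63 TPM). The order was by mean, and no neighbours other than i and c overlapped. In TAA liver mmu-let-7i-5p (8561 ± 1041 TPM) stood above mmu-let-7a-5p (4534 ± 171 TPM) and took the third place, the other members kept their order, and no neighbours overlapped. In recovery liver the order was that of control, with overlap between i and c and between e and miR-98. Since the ligation steps of library preparation favour some sequences, the order between members is one of counts in libraries rather than of molecules.

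**Figure D1:**
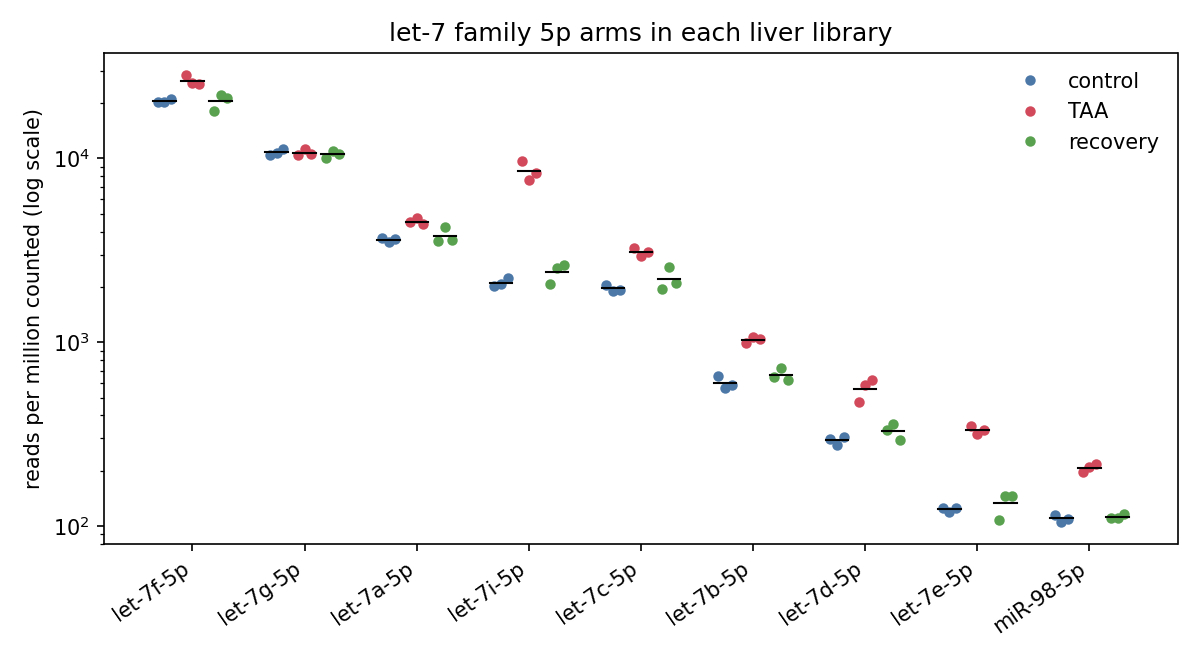
TPM (log scale) of the 9 family members in each of the 9 liver libraries, with points for samples, colours for groups and black lines for group means. mmu-let-7i-5p lies between 2016 and 2235 TPM in control, between 7657 and 9698 in TAA and between 2086 and 2635 in recovery, whereas the 3 groups of mmu-let-7g-5p overlap.

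Together the 9 members held 3.98%, 3.96% and 4.11% of the library in control, 5.83%, 5.44% and 5.41% in TAA and 3.70%, 4.38% and 4.16% in recovery. The means were 4.02% ± 0.0823, 5.56% ± 0.231 and 4.08% ± 0.345 (SD, n = 3 each). TAA stood above all control and recovery samples, while control and recovery overlapped. With the 3 most abundant miRNAs left out of the library total, the means were 10.4% ± 0.288 in control, 13.2% ± 0.755 in TAA and 10.4% ± 0.587 in recovery. TAA again stood apart, and control and recovery overlapped. On the TMM scale the direction was the opposite. The sum was 50293, 53653 and 54487 CPM in control, 40667, 33294 and 33322 CPM in TAA and 48310, 49339 and 47440 CPM in recovery, so that TAA was below all others and recovery was also below control without overlap. No test was made on the sum. The direction of the family as a whole in TAA thus depended on the scale, whereas the make-up of the family needs no scaling between libraries.

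The make-up of the family changed in TAA. mmu-let-7i-5p made up 5.06%, 5.21% and 5.43% of the family in control, 16.6%, 14.1% and 15.4% in TAA and 5.64%, 5.82% and 6.34% in recovery. Every TAA sample was above every other sample, and the recovery samples also lay just above the control samples. Together mmu-let-7f-5p and mmu-let-7g-5p made up 78.1% ± 0.495 of the family in control, 67.04% ± 0.709 in TAA and 76.3% ± 0.743 in recovery, with no overlap between any groups.

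**Figure D2:**
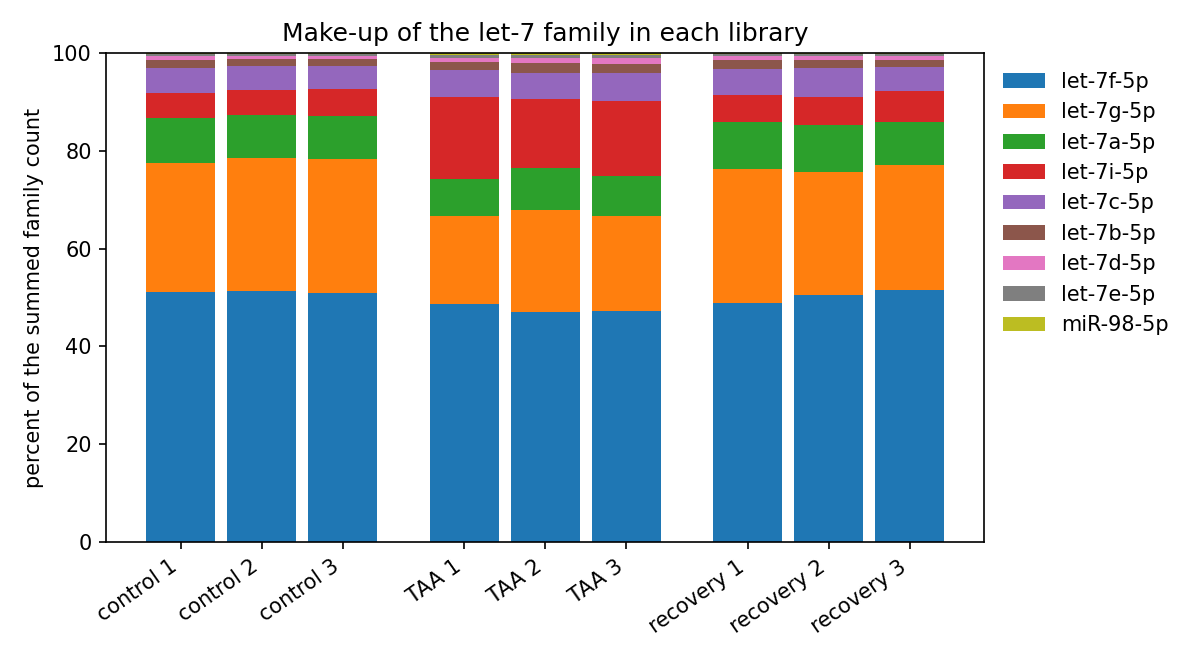
Make-up of the family in each library as stacked bars, with the percentage of the summed counts of the 9 members on the vertical axis and 1 bar per sample. The red band of mmu-let-7i-5p is between 5.06% and 5.43% in control, between 14.1% and 16.6% in TAA and between 5.64% and 6.34% in recovery, and the orange band of mmu-let-7g-5p is narrowest in TAA.

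TAA vs control addressed the difference between fibrotic and saline-treated liver. All 9 members passed the filter on low counts. On the TMM scale 1 member, mmu-let-7g-5p, met both thresholds for a differentially expressed miRNA (FDR under 0.05, changed 2-fold or more) and was down in TAA, where 41.7% of the 420 rows tested met both, 25.0% upward and 16.7% downward. That call was lost on TMM when rows were filtered at a mean of 10 CPM, where 1 member was called up and 0 down. At the FDR alone 2 members were up (e and i) and 5 down (a, b, c, f and g), where 58.3% of all rows passed, 31.9% upward and 26.4% downward. The members' median log2 fold change was -0.34 against 0.11 over all rows tested. Scaled by library totals, 8 members were up and none was down at the FDR, where 77.1% of all rows passed and 71.9% did so upward, and the members' median was 0.78 against 1.23 over all rows. On the family scale 5 of 9 members differed at the FDR, where 66.0% of all rows did (54.5% upward and 11.4% downward), with e, d, i and miR-98 up and g down.

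mmu-let-7i-5p had 2016, 2066 and 2235 TPM in control, 9698, 7657 and 8327 TPM in TAA and 2086, 2549 and 2635 TPM in recovery. The TAA samples stood apart from the rest, with no overlap. It was up in TAA vs control on every scale, with a log2 fold change of 0.90 (SE 0.13, FDR 0.00102) on TMM, 2.02 (SE 0.12, FDR 3.57e-05) on library totals and 1.55 (SE 0.10, FDR 7.13e-05) as a share of the family, which is 2.94-fold. Leaving out each sample in turn gave 0.79 to 0.99 on TMM and 1.49 to 1.61 for the share. In recovery vs TAA it was down by the same 3 measures, at -0.96 (SE 0.14, FDR 0.00195), -1.82 (SE 0.16, FDR 0.000153) and -1.37 (SE 0.12, FDR 0.000263). Recovery and control overlapped in TPM. As a share, the recovery samples were 0.18 higher on the log2 scale (SE 0.09), without overlap but not past the FDR (0.278).

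The hairpin of mmu-let-7i-5p, Mirlet7i, is the only one of that member and lies apart from the other let-7 hairpins, on chromosome 10 from 122985640 to 122985724 on the minus strand (GRCm38), in an exon of the transcribed pseudogene D630033A02Rik. It is shown from RefSeq because both its arms were measured, with the 5p arm (bases 6 to 27) and the 3p arm (bases 62 to 83) in capitals.
Mirlet7i: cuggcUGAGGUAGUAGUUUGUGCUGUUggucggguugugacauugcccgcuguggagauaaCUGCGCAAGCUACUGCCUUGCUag

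The 3p arm, mmu-let-7i-3p, is the strand that is usually discarded and was counted far less often than the 5p arm, at 20, 16 and 18 counts in control, 45, 45 and 55 in TAA and 24, 20 and 27 in recovery. It was highest in the 3 TAA samples. Relative to the family its log2 fold change was 1.14 (SE 0.29, FDR 0.0119) in TAA vs control and -0.92 (SE 0.30, FDR 0.0408) in recovery vs TAA. On TMM the values were 0.48 (SE 0.27, FDR 0.167) and -0.49 (SE 0.28, FDR 0.195), which did not pass.

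mmu-let-7g-5p, the member closest in sequence to mmu-let-7i-5p, behaved otherwise. It had 10497, 10744 and 11240 TPM in control, 10431, 11296 and 10531 TPM in TAA and 10104, 11012 and 10602 TPM in recovery, and the 3 groups overlapped. On library totals its log2 fold change in TAA vs control was -0.01 (SE 0.08), which was not past the FDR (0.922). On TMM it was down by the largest amount of any member, at -1.13 (SE 0.08, FDR 0.000104), a fold of 0.456. As a share of the family it was 26.3%, 27.1% and 27.3% in control, 17.9%, 20.8% and 19.5% in TAA and 27.3%, 25.2% and 25.5% in recovery. Its share fell in TAA vs control (log2 fold change -0.47, SE 0.09, FDR 0.00312) and rose in recovery vs TAA (0.42, SE 0.10, FDR 0.0145), though the second call was lost with the replicate number as a block (FDR 0.0705). Since a rise of 1 member lowers the shares of the others, the shares were also taken of the family without mmu-let-7i-5p, a choice made after the data were seen. On that scale mmu-let-7g-5p was still down in TAA vs control (-0.31, SE 0.08, FDR 0.0126), and in recovery vs TAA it was at 0.27 (SE 0.10, FDR 0.0508). The ratio of mmu-let-7i-5p to mmu-let-7g-5p, in which any scaling factor cancels, was 0.192, 0.192 and 0.199 in control, 0.930, 0.678 and 0.791 in TAA and 0.206, 0.231 and 0.249 in recovery, with no overlap between any groups. Mirlet7g lies in an intron of Wdr82 (chromosome 9, 106178840 to 106178927, plus strand).

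mmu-let-7e-5p was the other member whose gain in share held in every alternative run made for shares. These did not include summing members 1 base apart, which leaves mmu-let-7e-5p no row of its own. mmu-let-7e-5p had 124.8, 119.7 and 124.5 TPM in control, 351.7, 317.8 and 334.2 TPM in TAA and 108.3, 146.3 and 145.1 TPM in recovery, so that the TAA samples stood above all others and recovery lay on both sides of control. Its share of the family was 0.306% ± 0.00623 in control, 0.602% ± 0.0164 in TAA and 0.325% ± 0.0292 in recovery. The log2 fold change of the share was 0.98 (SE 0.11, FDR 0.000472) in TAA vs control and -0.89 (SE 0.13, FDR 0.00235) in recovery vs TAA. On TMM it was 0.32 (SE 0.12, FDR 0.0481) in TAA vs control, a call lost with the size factors of DESeq2 (FDR 0.0905), with DESeq2 itself (0.0856), under the replicate block (0.132) and without either of TAA replicates 1 and 2 or any 1 control replicate. In recovery vs TAA it was -0.47 on TMM (SE 0.14, FDR 0.0355), which was lost without any 1 of the 6 samples (FDR 0.0745 to 0.198) and under the block (FDR 0.118).

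mmu-let-7f-5p, the most abundant member, had 20391, 20347 and 20966 TPM in control, 28357, 25598 and 25567 TPM in TAA and 18121, 22099 and 21442 TPM in recovery. Its level per library was thus highest in TAA, and control and recovery overlapped. On TMM it was down in TAA vs control (-0.75, SE 0.09, FDR 0.0005) and up in recovery vs TAA (0.50, SE 0.11, FDR 0.00935), the second call being lost without TAA replicate 3 (FDR 0.0573). Its share of the family was 51.2% ± 0.199 in control and 47.7% ± 0.886 in TAA, without overlap and not past the FDR (log2 fold change -0.10, FDR 0.222). Because it makes up much of the sum, it was also set against the other 8 members alone, where the change was -0.20 and past the FDR (0.0413). Of the family without mmu-let-7i-5p it was 0.06 (FDR 0.456).

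mmu-let-7a-5p followed mmu-let-7f-5p, from which it differs by 1 base. It had 3687, 3490 and 3652 TPM in control, 4501, 4719 and 4383 TPM in TAA and 3551, 4223 and 3605 TPM in recovery. TAA stood above the other groups, and control and recovery overlapped. On TMM it was down in TAA vs control (-0.79, SE 0.09, FDR 0.000433) and up in recovery vs TAA (0.61, SE 0.12, FDR 0.00674), and its share was not past the FDR in either comparison (-0.14, FDR 0.226, and 0.19, FDR 0.183).

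The 4 remaining members were raised in TAA on library totals and less so, or not, on the other scales. mmu-let-7c-5p rose from 1964 ± 82.2 TPM in control to 3101 ± 160 TPM in TAA and stood at 2201 ± 318 TPM in recovery, with TAA above every other sample. mmu-let-7b-5p, encoded beside let-7c-2, had 601.2 ± 44.4, 1033 ± 35.7 and 664.9 ± 54.0 TPM. As shares of the family their log2 fold changes in TAA vs control were 0.19 (FDR 0.115) for c and 0.32 (FDR 0.0539) for b, and of the family without mmu-let-7i-5p they were 0.35 (FDR 0.0136) and 0.48 (FDR 0.00885). Both were down on TMM in TAA vs control, c by -0.46 (FDR 0.00648) and b by -0.34 (FDR 0.031), the call for b being lost with no filter on low counts (FDR 0.142), in a fit of all 9 samples (FDR 0.0902), under the replicate block (FDR 0.105) and without any 1 control replicate or TAA replicate 2 (FDR 0.0588 to 0.122).

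mmu-let-7d-5p, which differs from mmu-let-7a-5p by U1A and U16C, had 298.8, 277.2 and 304.4 TPM in control, 471.3, 582.1 and 625.2 TPM in TAA and 333.5, 356.5 and 292.0 TPM in recovery. mmu-miR-98-5p, which carries the family's seed under another name, had 114.8, 105.6 and 108.9 TPM in control, 197.4, 208.4 and 217.2 TPM in TAA and 110.0, 110.5 and 116.03 TPM in recovery. TAA stood apart in both. Their shares rose in TAA vs control by a log2 fold change of 0.47 (SE 0.16, FDR 0.0344) for d and 0.46 (SE 0.12, FDR 0.0147) for miR-98. The call for d was lost under the replicate block (FDR 0.0657) and without any 1 control replicate or TAA replicate 2 or 3, and that for miR-98 without control replicate 2 (FDR 0.0692) or control replicate 3 (FDR 0.0754). On TMM neither differed at the FDR, at -0.19 (FDR 0.241) for d and -0.20 (FDR 0.151) for miR-98.

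**Figure D3:**
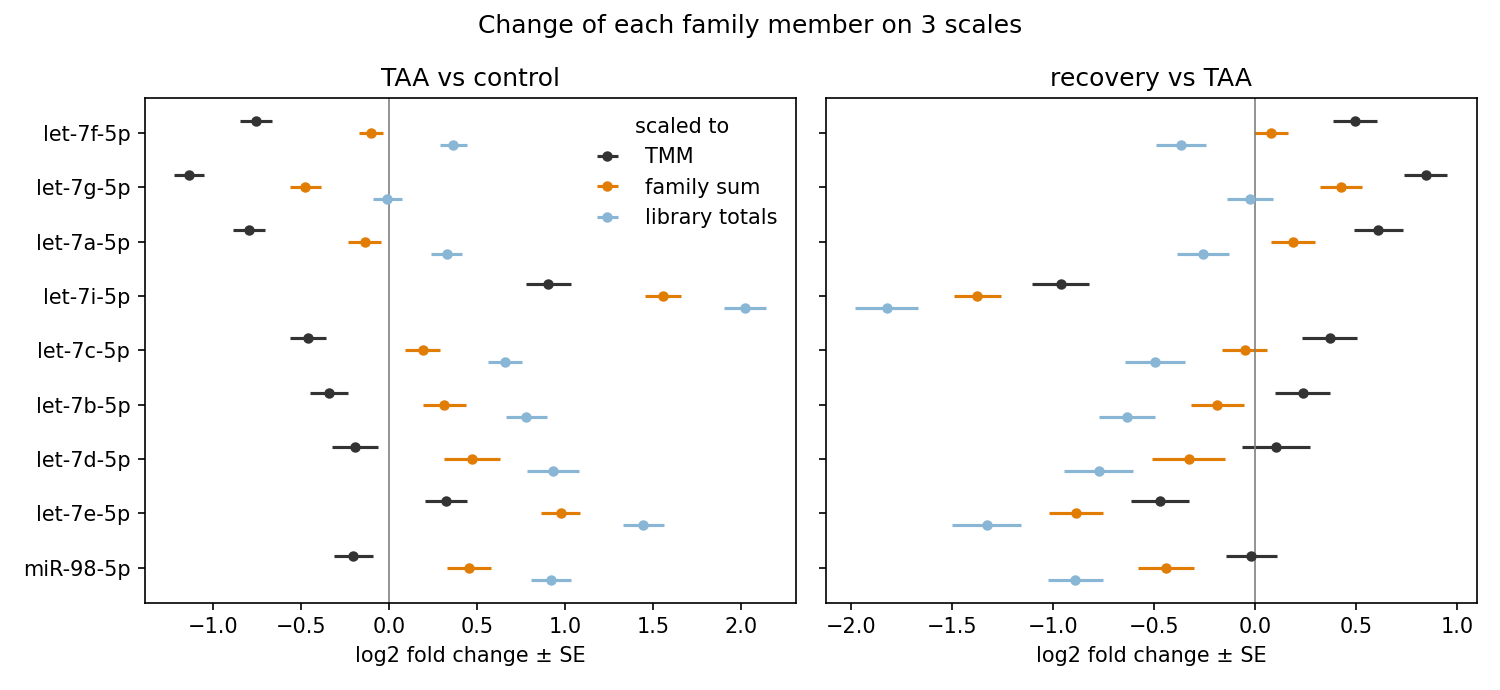
Log2 fold change ± SE of each member in TAA vs control (left) and recovery vs TAA (right), from edgeR fits scaled by TMM (black), by the family sum (orange) and by library totals (blue), n = 3 per group. In the left panel only mmu-let-7i-5p and mmu-let-7e-5p lie above 0 on all 3 scales, and in the right panel they lie furthest below 0 on all 3.

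The comparison of recovery with TAA asked which of these differences were undone after TAA was stopped. It shares the TAA samples with the comparison above, so opposite signs between them are not independent. On TMM no member reached both thresholds, where 24.8% of the 440 rows tested did (10.2% upward and 14.5% downward). With the FDR alone 3 members were up (a, f and g) and 2 down (e and i), where 39.1% of all rows passed (18.4% upward and 20.7% downward). In edgeR 6 members had an unadjusted p under 0.05, as had 213 of the 440 rows tested. DESeq2 also called none at both thresholds and 6 at the FDR. On library totals 7 members were down at the FDR, where 64.1% of all rows passed and 60.0% did so downward. On the family scale 4 of 9 members differed at the FDR, where 46.8% of all rows did (10.5% upward and 36.4% downward). Among them g was up, and e, i and miR-98 were down. The fall of mmu-miR-98-5p (-0.44, SE 0.14, FDR 0.0358) was lost under the block (FDR 0.120) and without any 1 sample other than TAA replicate 1 (FDR 0.0724 to 0.134).

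In recovery vs control no member was called on TMM, where 11.3% of the 391 rows tested were called and 14.1% passed the FDR alone. None passed the FDR in edgeR, DESeq2 or limma. In edgeR 1 member, mmu-let-7g-5p, had an unadjusted p under 0.05, as had 90 of the 391 rows tested. The log2 fold changes on TMM ran from -0.22 (SE 0.09, FDR 0.190) for mmu-let-7g-5p to 0.01 (SE 0.09, FDR 0.957) for mmu-let-7i-5p. The groups did not overlap for g and for f (FDR 0.262), but rows without overlap were not counted over the whole table. As shares of the family, from -0.05 for g to 0.18 for i, again none passed (16.1% of all rows did).

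The other arms of the same hairpins were compared as a readout that the choice of members did not use. The table held 11 rows of let-7 and miR-98 3p arms, and 7 passed the filter. In TAA vs control 3 were down at the FDR on TMM and none up, where 26.4% of all rows were down and 31.9% up. Of these, mmu-let-7f-1-3p was also past the fold threshold (log2 fold change -1.14, SE 0.38, FDR 0.0359), where 16.7% of all rows were called down. Its call rested on 13 to 29 counts per sample and held in only 1 of the 6 fits that left out a sample. On library totals the direction was the opposite, with 4 up and 0 down at the FDR, where 71.9% of all rows were up. The only call there was mmu-let-7i-3p, up by 1.60 (SE 0.28, FDR 0.00154). On TMM none of the 7 was called or past the FDR in recovery vs TAA or in recovery vs control. There 1 and 0 had an unadjusted p under 0.05, as had 213 of 440 and 90 of 391 rows tested, and 39.1% and 14.1% of all rows passed the FDR. On library totals 3 were down at the FDR in recovery vs TAA, where 60.0% of all rows were. For the 6 hairpins whose arms each have a row of their own, the log2 ratio of 5p to 3p counts needs no scaling. In the control group it was 10.3 ± 0.0527 for let-7i, 6.97 ± 0.174 for let-7b, 5.61 ± 0.386 for let-7e and 1.98 ± 0.0844 for let-7d, in which the 5p arm was only 3.78 to 4.23 times as frequent as the 3p arm. Of 18 comparisons the groups did not overlap in 2, both TAA vs control. The ratio was higher by 0.61 for let-7e and by 0.48 for let-7i (exact two-sided permutation p = 0.1 each, the smallest that 3 against 3 allow, adjusted p = 0.72). The 3p arms of let-7g and miR-98 had between 0 and 8 counts per sample, too few for their ratios to be read.

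Several let-7 hairpins lie beside hairpins of the miR-99/100 and miR-125 families, with which they can be transcribed. On chromosome 17, Mirlet7e (17830352 to 17830444, plus strand, GRCm38) lies 94 bases from Mir99b and 367 bases from Mir125a, in an intron of Spaca6. Mirlet7c-1 lies 656 bases from Mir99a on chromosome 16, in an intron of Mir99ahg, and Mirlet7a-2 lies 5211 bases from Mir100 on chromosome 9. Other hairpins are clustered within the family, with a-1, f-1 and d on chromosome 13, c-2 and b on chromosome 15, and f-2 with miR-98 in an intron of Huwe1 on the X chromosome. Mirlet7g and Mirlet7i had none of these hairpins within 10000 bases on the same strand. Members with more than 1 hairpin (a, c and f) cannot be assigned to one of them from the mature 5p counts.

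Of the neighbours of let-7e, both arms of miR-99b differed on TMM in the direction of mmu-let-7e-5p. mmu-miR-125a-5p did so only on other scales, where it lay near the median of all rows tested. mmu-miR-99b-5p had 542.7 ± 10.9 TPM in control, 1800 ± 69.0 TPM in TAA and 635.2 ± 40.2 TPM in recovery, with TAA above every other sample. On TMM it was up in TAA vs control (0.61, SE 0.11, FDR 0.00244) and down in recovery vs TAA (-0.64, SE 0.13, FDR 0.00741). mmu-miR-99b-3p, the other arm, was up by 0.84 (SE 0.18, FDR 0.00544) and then down by -1.01 (SE 0.18, FDR 0.00367). mmu-miR-125a-5p had 116.2, 73.8 and 121.2 TPM in control, 216.8, 243.3 and 315.0 TPM in TAA and 167.7, 130.2 and 119.7 TPM in recovery, with TAA above every other sample. On TMM its groups overlapped and it did not pass, at 0.20 (FDR 0.446) in TAA vs control and 0.00 (FDR 0.994) in recovery vs TAA. On library totals it was up by 1.32 (SE 0.23, FDR 0.00171) and then down by -0.89 (SE 0.21, FDR 0.00676), against medians of 1.23 and -0.98 over all rows. Relative to the family sum it was at 0.86 (SE 0.24, FDR 0.0159) and -0.43 (SE 0.24, FDR 0.171), and only the first passed. The medians over all rows on that scale were 0.76 and -0.53. The neighbour of let-7c-1, mmu-miR-99a-5p, was down in TAA vs control on TMM (-0.72, SE 0.14, FDR 0.00411) and up in recovery vs TAA (0.90, SE 0.16, FDR 0.00396), while on library totals it was at 0.40 and 0.03.

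**Figure D4:**
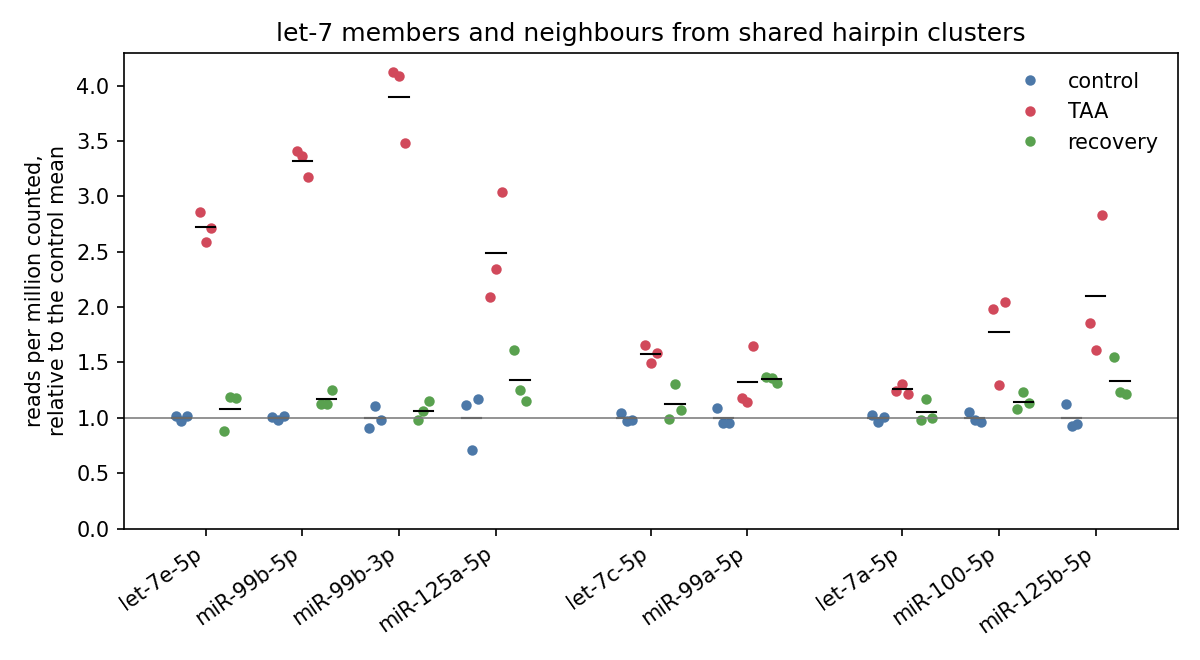
TPM of let-7e, let-7c and let-7a 5p arms and of miRNAs from neighbouring hairpins in each library, divided by the mean of the 3 control samples (grey line at 1), with points for samples and black lines for group means. The TAA points of every miRNA shown other than miR-99a-5p lie above all its control and recovery points, and those of miR-99a-5p overlap with recovery.

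Of 11 partner rows 10 passed the filter. On TMM, in TAA vs control, 1 was called up (mmu-miR-125b-1-3p, 1.40, SE 0.42, FDR 0.0253) and 1 down (mmu-miR-99a-3p, -1.33, SE 0.38, FDR 0.0217). Of all rows tested 41.7% were called, 25.0% upward and 16.7% downward. At the FDR alone 3 partners were up and 2 down, where 58.3% of all rows passed. Both calls rested on few counts, 23 to 208 and 6 to 15 per sample. That of mmu-miR-125b-1-3p was lost in 5 of the 6 fits that left out a sample, and so was that of mmu-miR-99a-3p. In recovery vs TAA 3 were called, mmu-miR-99a-3p up (1.29, FDR 0.0303) and mmu-miR-125b-1-3p (-1.25, FDR 0.0457) and mmu-miR-99b-3p down. Of all rows tested 24.8% were called. The call of mmu-miR-125b-1-3p, whose groups overlapped, was lost with the size factors of DESeq2 (FDR 0.0574), under the replicate block (FDR 0.0737) and without any 1 sample other than TAA replicate 2 (FDR 0.0876 to 0.145). That of mmu-miR-99a-3p was lost without recovery replicate 1 or 2 or TAA replicate 2 or 3 (FDR 0.0597 to 0.106), with no filter on low counts (FDR 0.117) and on library totals (FDR 0.334). That of mmu-miR-99b-3p lay just past the fold threshold (-1.01), with a range of -1.09 to -0.857 when single samples were left out. With the size factors of DESeq2, without any 1 recovery replicate or without TAA replicate 1, 0 partners were called down. None was called in recovery vs control, where 11.3% of all rows were called. There 1 partner had an unadjusted p under 0.05, as had 90 of the 391 rows tested.

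Some markers of liver cell types differed between the groups. Summed over their lists, on TMM, hepatocyte miRNAs were at 356714 to 371793 CPM in control, 105256 to 112019 CPM in TAA and 268495 to 396807 CPM in recovery, and 2 of 2 were called down in TAA vs control. Biliary miRNAs (miR-200 family) were at 566.9 to 741.2 CPM, 3256 to 5476 CPM and 1206 to 1376 CPM, and 4 of 4 were called up. Of stellate and mesenchymal markers 3 of 5 were up, of leukocyte markers 1 of 4 was up, of red cell markers 1 of 3 was down, and of endothelial markers 0 of 2 was called. Of all rows tested 41.7% were called. The stellate sum overlapped between all groups on TMM (25480 to 31109, 18032 to 39505 and 21869 to 35800 CPM). By TPM it was 19241 to 24643 in control, 29450 to 64191 in TAA and 16755 to 31359 in recovery. There TAA stood above control and overlapped with recovery. The endothelial sum was lowest in TAA on TMM (5700 to 6895 CPM) and highest in TAA by TPM (8755 to 11204). In recovery vs control 1 biliary marker was called up and 1 red cell marker down, where 11.3% of the 391 rows tested were called, 41 upward and 3 downward. No marker was at 0 in any sample. The part of these cell types in the change of the family's make-up was not tested.

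The 5 rows whose TMM levels, as log2(CPM + 1), followed the family sum most closely over the 9 samples, of 215 with a mean of at least 10 CPM, were mmu-miR-1948-5p, mmu-miR-1839-5p, mmu-miR-30a-3p (Pearson's r of 0.98 each), mmu-miR-30a-5p and mmu-miR-30e-3p (0.97 each). These values describe 9 samples that share the TMM factors. On library totals the coefficients were -0.79, 0.94, -0.35, -0.14 and 0.33, so that mmu-miR-1839-5p alone stayed close to the family on both scales. Its level was 409.4 ± 23.9 CPM in control, 252.3 ± 29.6 CPM in TAA and 356.6 ± 10.5 CPM in recovery on TMM. Among the members themselves, the TMM level of mmu-let-7i-5p ran with that of mmu-let-7e-5p (r = 0.96) and against that of mmu-let-7g-5p (r = -0.92) over the same 9 samples.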

How the data were processed

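The authors extracted total RNA from liver with TRIzol, prepared libraries by adapter ligation (NEBNext small RNA kit), and mapped the reads with Bowtie (version 1.3.0, per the labels) to the mouse genome (mm10) and to known miRNAs. They deposited raw read counts and TPM, which equalled the count divided by the sample total and multiplied by 1000000 (largest difference 5e-05) with no term for length. The assignment of reads that match several miRNAs and the use of strand were not given in the sources used here. DESeq2 was the authors' own test.

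Here the deposited counts of all rows were tested with edgeR 4.0.16 in R 4.3.3 (quasi-likelihood F test, filterByExpr with a minimum count of 10, TMM, 2 groups per fit, no covariates, Benjamini-Hochberg adjustment over all rows tested). A row was called when its FDR was under 0.05 and it changed 2-fold or more. For the share of the family, the summed count of the 9 members replaced the library size. SE is the size of the log2 fold change divided by the square root of F. CPM uses TMM factors over the 9 samples. DESeq2 1.42.0, limma 3.58.1 on log2(TPM + 1), other scalings and filters, and leaving out each sample were alternatives. The edgeR step was tested on simulated counts. Arm ratios used counts plus 1 and exact permutation tests. Each sample is a different mouse, so replicate numbers do not pair samples. The mRNA libraries were not analysed here.

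All 9 members were named, and of the 3p arms and cluster partners those called, those needed for arm ratios and the hairpin neighbours. Rows like the family sum were the 5 of highest r. mmu-miR-99b-5p, mmu-miR-99a-5p and mmu-miR-125a-5p were named after their values were seen. The members, lists and tests were chosen with earlier results of these data known. Hairpin positions came from RefSeq (GRCm38.p6) or, for Mir99b and Mir125b-2, from GENCODE M21, and overlapping genes from GENCODE M21.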

Additional observations from a re-analysis of the deposited data

How the results depend on the processing

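The gain of mmu-let-7i-5p in TAA and its fall in recovery vs TAA kept their direction and passed the FDR under every alternative run, library totals included, both as a level and as a share of the family. So did the changes in share of mmu-let-7e-5p in both comparisons and of mmu-let-7g-5p in TAA vs control. Shares were not run with members 1 base apart summed. The log2 ratio of the family sum in TAA vs control was -0.568 on TMM, -0.668 with DESeq2 size factors, 0.343 without the 3 most abundant miRNAs and 0.304 without mmu-let-7i-5p (an alternative added after the data were seen), and 0.433 to 0.486 when each sample was left out. In recovery vs TAA it was 0.442, 0.468, -0.347 and -0.297, and -0.502 to -0.381. In recovery vs control it was -0.126 and -0.201 with the first and second of these, -0.00446 without the 3 miRNAs, and -0.0355 to 0.0855. The cause was not tested.

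On library totals (limma on TPM in parentheses) log2 fold changes in TAA vs control turned to 0.329 (0.329) for a, 0.781 (0.782) for b, 0.659 (0.658) for c, 0.931 (0.92) for d, 0.366 (0.364) for f, 0.92 (0.914) for miR-98 and 0.403 (0.385) for miR-99a-5p. In recovery vs TAA they turned to -0.257 (-0.261) for a, -0.635 (-0.637) for b, -0.494 (-0.503) for c, -0.773 (-0.766) for d, -0.367 (-0.371) for f and -0.0244 (-0.0244) for g. With a filter of 10 CPM, d was 0.0126 and miR-98 was 0.00295 in TAA vs control, and d was -0.0585 in recovery vs TAA. mmu-miR-98-5p in recovery vs TAA was 0.04 with DESeq2 size factors, 0.0398 with DESeq2, 0.00498 in a fit of 9 samples, 0.0226 with members 1 base apart summed, and 0.000314 to 0.0515 when samples were left out. mmu-let-7i-5p in recovery vs control was -0.0111 with no filter, -0.00236 with members summed, and -0.046 to 0.0735 without single samples. Of the family without mmu-let-7i-5p, shares in TAA vs control turned to 0.0256 for a and 0.0612 for f, and in recovery vs TAA to -0.0737 for f.

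Members called in TAA vs control were 2 up and 0 down on library totals (e and i), 2 up and 0 down with limma, and 1 up and 0 down with the 10 CPM filter. In recovery vs TAA they were 0 up and 2 down on library totals (e and i), 0 up and 2 down with limma, and 0 up and 1 down with the 10 CPM filter. Of all 420 rows tested on library totals in TAA vs control, 241 were called up and 4 down. Of 440 in recovery vs TAA, 4 were called up and 203 down. With members summed (a, b, c, e and f, leaving 5 rows), 3 passed the FDR in each of these comparisons. Leaving out samples gave 3 to 5 past the FDR in recovery vs TAA, the 3 without TAA replicate 3. 3p arms called in TAA vs control were 0 with no filter and 0 with the 10 CPM filter, and 0 to 1 without single samples, and in recovery vs TAA 1 on library totals, 1 with limma, and 0 to 1. Partners called in TAA vs control were 6 on library totals, 5 with limma, 1 with no filter, 1 with the 10 CPM filter and 0 to 1 without single samples, and in recovery vs TAA 1 with DESeq2 size factors, 1 with the 10 CPM filter and 0 to 2. Shares differing in TAA vs control were 3 to 6, with 3 without control replicate 2 or 3. Arm ratios without overlap were 2 to 6, with 6 without recovery replicate 2, 5 without TAA replicate 2 and 4 without TAA replicate 3.

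With the replicate number as a block, 2 shares differed in recovery vs TAA in place of 4, and 5 and 4 members passed the FDR on TMM in TAA vs control and recovery vs TAA in place of 7 and 5. Samples with the same number deviated together in no regular way (r of -0.357 to 0.368, above 0.1 in 4 of 9 pairs), so the number does not pair them. Depth limits the arm ratios, which for let-7e and let-7i rest on 16 to 55 counts of the 3p arm per sample.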
